A study of Homo sapiens with 12 samples.

Results

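The probes described here lie on noncoding transcripts of RefSeq, the curated transcript catalogue in which an accession that begins with NR_ marks an RNA with no annotated protein product and one that begins with NM_ marks a messenger RNA. They were all probes, other than control spots, whose accession in the scanner files began with NR_, and there were 7913 of them, on 2779 transcripts, among 233164 probes in all. Another 205405 probes lay on 30489 coding transcripts and served for comparison. Of the noncoding transcripts, 1036 had a single probe, and 2564 were matched to a gene of the RefSeq table.

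RNA came from MDA-MB-231, an established triple-negative breast cancer cell line, and was hybridised to 12 single-color Agilent exon arrays, 3 for each of 4 groups. Cells of the cntrl group received a control mimic and a control siRNA, and mimic145 cells overexpressed miR-145-5p from a mimic, an RNA that acts as the mature microRNA. In the sirnaAGO2 group AGO2, the Argonaute protein that loads microRNAs and can cut their targets, was silenced by a Dicer-substrate siRNA, and sirnaAGO2+mimic145 cells had both treatments. Mimics were used at 5 nM and siRNAs at 500 pM for 72 h. The comparisons asked which transcripts responded to miR-145-5p, which responded to the loss of AGO2, and whether the response to the mimic differed once AGO2 was silenced. The arrays lay on 6 slides of 2, each slide held the arrays of 1 replicate number and 1 silencing state, and the mimic array was always at the second position, so that position and mimic cannot be told apart, and neither can slide and silencing within a replicate number. AGO2 itself, over 19 probes, fell by 0.71 on the log2 scale in silenced cells (limma adjusted p = 0.0038), so that part of its RNA remained there. Of the markers examined, VIM (9 of 9) and CD44 (18 of 18) had all probes well above background in cntrl cells. So did FN1 (50 of 50) and MSN (13 of 13). ESR1 had 6 of 14 such probes, PGR 1 of 9 and CDH1 7 of 16. ERBB2, listed beforehand as low for this line, had 26 of 30. GATA3 (6 of 6) and KRT18 (13 of 13), listed as low too and known from luminal cells, were detected as well.

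Noncoding RNAs are made and used in several ways. Small nucleolar RNAs (snoRNAs) and their relatives of the Cajal bodies (scaRNAs) guide chemical changes of other RNAs and are mostly cut out of introns of a host gene, and many long noncoding RNAs are such hosts, or hosts of a microRNA, whose spliced remainder is the RNA that a probe of the host measures. Antisense and divergent RNAs are transcribed opposite or away from a coding gene, and pseudogenes are copies of a parent gene, so that probes of copy and parent can be alike. MicroRNAs recognise targets mainly through the seed, bases 2 to 8 of the mature strand.

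The mature strand that the mimic supplies and both strands made from MIR22HG, the microRNA host that rose most clearly with the mimic (below), are given here from the RefSeq table with the seed in capitals. The sites are chr5:149430661-149430683 (+) for miR-145-5p, chr17:1713914-1713935 (-) for miR-22-3p and chr17:1713952-1713973 (-) for miR-22-5p, in GRCh38.p14. The 3 seeds differ from each other.
hsa-miR-145-5p: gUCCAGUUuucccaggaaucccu
hsa-miR-22-3p: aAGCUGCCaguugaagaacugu
hsa-miR-22-5p: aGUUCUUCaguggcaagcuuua

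Noncoding probes were detected less often than coding ones on all 12 arrays. Feature Extraction called 37.9% to 56.3% of the noncoding probes of an array well above background (median 45.5%), against 64.6% to 80.1% of the coding probes (median 72.9%). On all 12 arrays alike, 31.4% of the noncoding and 60.4% of the coding probes were detected, and 38.1% and 16.3% were detected on none. The library labelled mimic145 replicate 3 had the highest share in both kinds of probe (56.3% and 80.1%), while mimic145 replicates 1 and 2 had 42.1% and 38.1% of the noncoding probes. The spread inside the mimic145 group was therefore wider than any difference between the means of the groups.

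**Figure D1:**
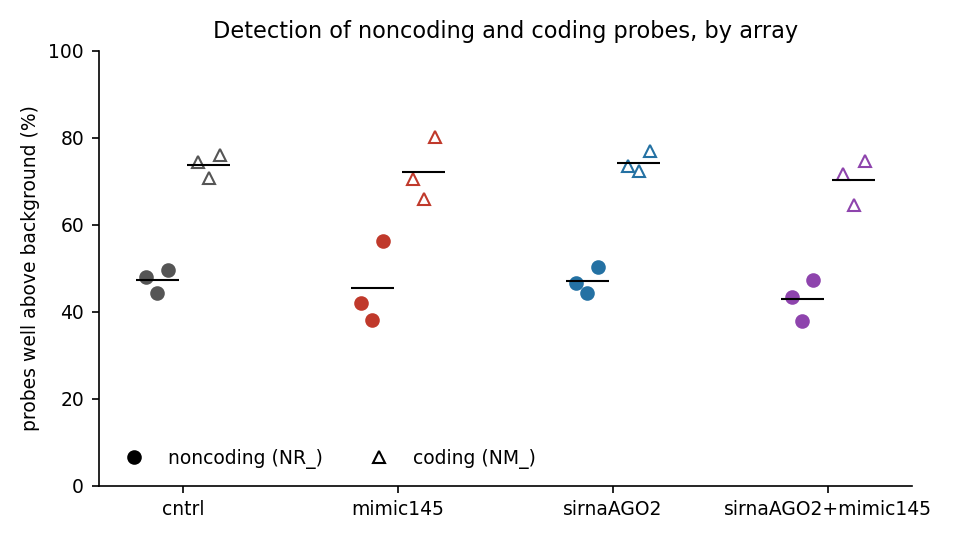
Share of probes called well above background (y axis, percent) on each of the 12 arrays, by group (x axis), for noncoding transcripts (filled circles) and coding transcripts (open triangles), with black lines at the means of 3 arrays. The noncoding shares lie between 37.9% and 56.3% and the coding shares between 64.6% and 80.1%.

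Over all transcripts with no filter, the median log2 signal in cntrl cells was 5.62 for noncoding and 7.12 for coding transcripts, a difference of -1.50 (noncoding minus coding). A signal is a mean over probes of different sequence, so that this compares distributions of signals and not molecules. The difference depended on the background correction and the filter, and was -0.82 with normexp and -0.67 among transcripts with a kept probe. Classes of noncoding RNA were unlike each other. The small structural RNAs (36 transcripts) had 94.0% of their probes detected and a median log2 signal of 9.26, and the snoRNA and microRNA host genes (62 transcripts) had 73.0% and 8.77. Pseudogenes (743 transcripts) stood at 51.8% and 6.22, antisense RNAs (492) at 42.8% and 5.43, and long intergenic RNAs (525) at 34.3% and 4.99. Among transcripts with 2 or more kept probes, the highest log2 signals in cntrl cells were those of the ribosomal RNAs RNA18SN5 (17.26 ± 0.50, SD, n = 3) and RNA28SN5 (16.98), then the pseudogenes RPS2P32 (14.70), ACTG1P4 (14.27) and MT1L (14.16), and LOC729737 (13.72).

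Changes were tested for the 1861 noncoding transcripts that kept at least 1 probe, a probe being kept when it was well above background on all 3 arrays of a group. With the mimic in cells with AGO2, 246 noncoding transcripts changed (limma, adjusted p under 0.05), 109 lower and 137 higher. This was 13.2% of those tested, and the share was 16.5% over all 32779 transcripts (8.11% lower and 8.40% higher) and 18.0% over coding transcripts. Among the transcripts that changed, 35 noncoding ones differed by more than 1 on the log2 scale. In bulk RNA, fewer cells that express a transcript and less of it in each cell cannot be told apart. The share that changed varied with level. Among transcripts with a mean log2 level over 9.23, 16.6% of noncoding and 24.8% of coding transcripts changed, and among those under 6.77 it was 11.9% and 9.16%. It also varied with the number of probes, as 12.5% of noncoding transcripts with 1 kept probe changed, 13.2% of those with 2 to 3 and 18.0% of those with 4 or more, against 14.2%, 15.7% and 21.4% of coding transcripts. Without the replicate block 102 noncoding transcripts changed, and without replicate 1 only 34. By the methods' paired test, 0 passed after Benjamini-Hochberg adjustment.

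The share that changed with the mimic differed between the classes, from 8.17% of the 306 long intergenic RNAs to 29.4% of the 51 host genes. Of the host genes 2 fell and 13 rose, and of the 33 small structural RNAs 7 fell and 1 rose (24.2%). Of 125 noncoding transcripts of genes that also make a protein, 3 fell and 16 rose. Pseudogenes (35 lower, 43 higher of 562) and antisense RNAs (24 lower, 20 higher of 325) moved in both directions.

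**Figure D2:**
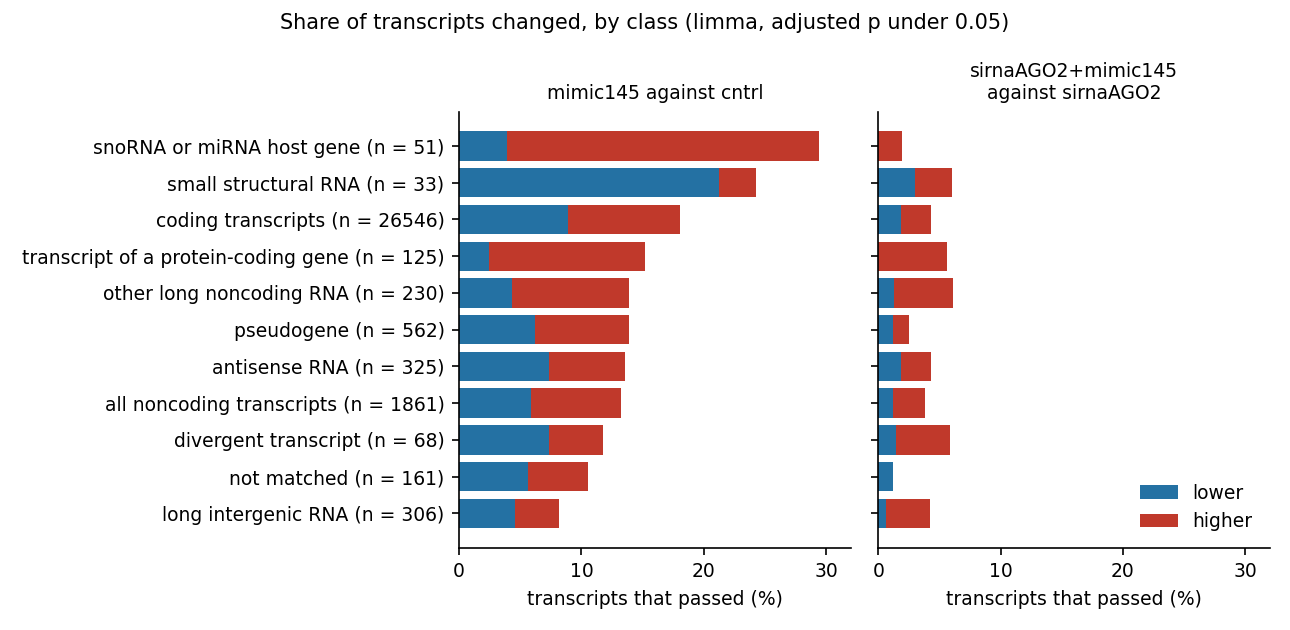
Share of tested transcripts that passed (x axis, percent, limma adjusted p under 0.05), lower in blue and higher in red, for each class of noncoding transcript, for all noncoding and for coding transcripts (y axis, with the number tested), for the mimic with AGO2 (left) and with AGO2 silenced (right). Host genes lie at 29.4% on the left, nearly all higher, and small structural RNAs at 24.2%, nearly all lower.

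Of the lists of genes examined, that of snoRNA host genes held the most rises. Of 24 transcripts of 18 listed host genes, 8 rose with the mimic in cells with AGO2 and 0 fell, where 8.40% of all transcripts rose, and 22 of the 24 estimates were above 0, with a median of 0.26 against 0.01 over all transcripts. The transcripts that rose were those of SNHG15 (0.67 ± 0.16, SE), SNHG8 (0.63 ± 0.09), SNHG1 (0.62 ± 0.12), SNHG17 (NR_015366 0.60 ± 0.09 and NR_027241 0.54 ± 0.10), SNHG9 (0.50 ± 0.09), SNHG12 (0.33 ± 0.08) and SNHG11 (0.32 ± 0.08). All 8 were higher in 3 of 3 replicate pairs, which is likely for transcripts that passed a test blocked by replicate. All mimic145 arrays were above all cntrl arrays for 10 of the 24 host transcripts, and for 13.8% of all transcripts. GAS5, the host of many box C/D snoRNAs, differed by 0.27 ± 0.10 (adjusted p = 0.106), and the 3 transcripts of ZFAS1 by 0.16 to 0.21, none of which passed. The count of 8 was 6 without the replicate block, 3 when the arrays of the other groups were left out of the fit, 0 without replicate 1, 3 without replicate 2 or replicate 3, and 5 without cntrl replicate 1, cntrl replicate 2 or mimic145 replicate 1, while it stayed between 8 and 10 under the other scalings.

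SNHG1, which was measured by 14 probes, had log2 levels of 9.78, 10.00 and 10.20 in cntrl cells and a mean of 10.62 ± 0.07 in mimic145 cells (SD, n = 3, lowest 10.56). In sirnaAGO2 cells it had 9.98, 10.17 and 10.20, and in sirnaAGO2+mimic145 cells 10.04, 10.03 and 9.84. The 3 mimic145 arrays were above all the others, and all 14 probes were higher on average with the mimic. SNHG8 had 11.76, 11.74 and 12.14 in cntrl, 12.52, 12.34 and 12.68 in mimic145, 11.94, 12.01 and 12.14 in sirnaAGO2, and 12.07, 12.11 and 12.20 in sirnaAGO2+mimic145 cells. Its mimic145 arrays again stood apart from the other 9.

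In cells with AGO2 silenced, 0 of the 24 host transcripts changed with the mimic (limma, smallest adjusted p = 0.0554), where 4.26% of all transcripts changed. The median of the host transcripts was 0.07, against 0.03 over all transcripts. The difference between the responses in both backgrounds was below 0 for 21 of 24, with a median of -0.26. However, 0 passed the limma test of the difference itself (smallest adjusted p = 0.145). At an unadjusted p under 0.05 there were 9 of the 24, where 13.9% of all transcripts reached it. A rise in cells with AGO2 and none past the threshold in silenced cells is therefore not shown to be a difference between them. Silencing alone raised SNHG9 (0.60 ± 0.09, adjusted p = 0.0343) and 1 of the transcripts of SNHG10 (NR_001459, 0.91 ± 0.15, adjusted p = 0.0414).

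**Figure D3:**
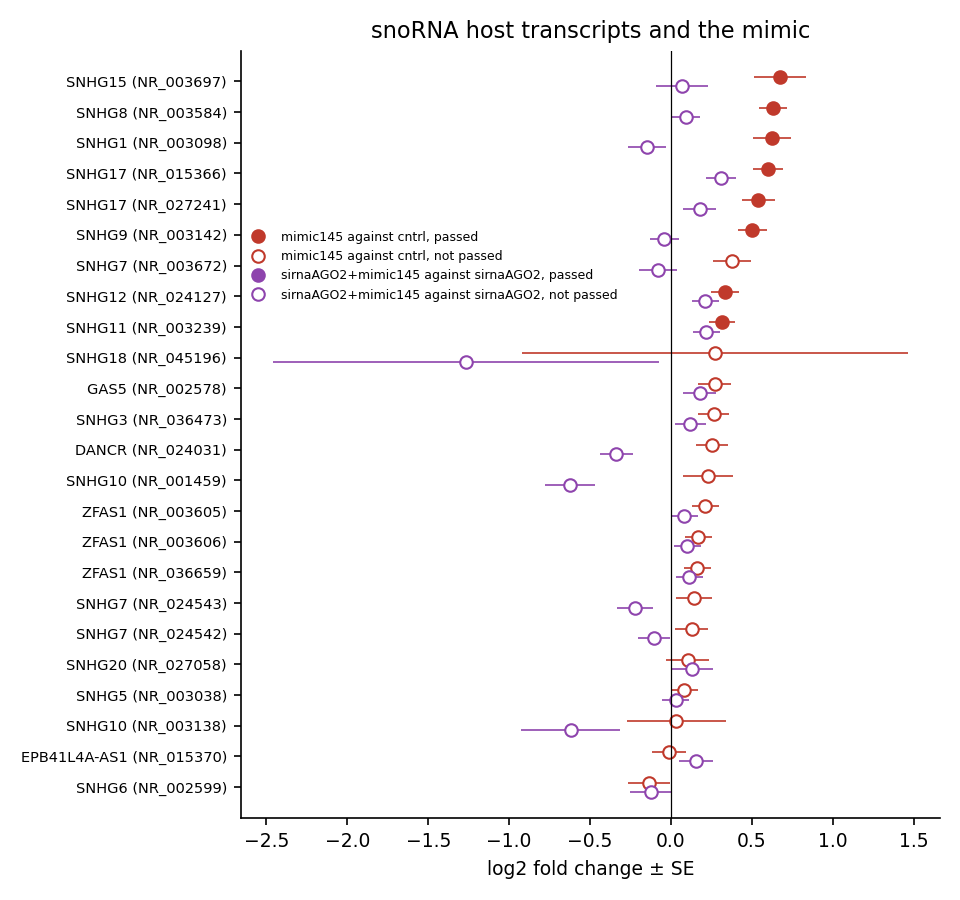
Log2 fold change with its standard error (x axis) of the 24 transcripts of snoRNA host genes (y axis), with the mimic in cells with AGO2 (red) and with AGO2 silenced (purple), filled where limma's adjusted p was under 0.05. Red points are filled for 8 transcripts, between 0.32 and 0.67, and no purple point is filled.

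Host genes of this kind are known for a terminal oligopyrimidine tract, a run of C and T at the first transcribed base that ties translation to growth signals. First bases from RefSeq (GRCh38.p14) are shown for host genes that rose (SNHG1, SNHG8, SNHG12, SNHG17 and SNHG11). Those of SNHG5 and ZFAS1, which did not pass, follow. Each window holds 10 bases before the annotated start and 20 from it on, with a run of C and T near the start in capitals. A run was counted as a C followed by at least 4 bases that are each C or T, on the strand of the gene. Its C lay from 5 bases before to 10 after the start, so that a run need not begin at the first transcribed base. Of the runs shown, only those of SNHG5 and ZFAS1 begin at the annotated start. By this count 12 of 19 listed host genes with an entry held a run, against 25.9% of all 35116 promoters. This is not a count of terminal oligopyrimidine tracts. SNHG1 and GAS5 held none in the window, while SNHG5 and ZFAS1, which did not pass, did. SNHG9 and SNHG15 had no entry.
SNHG1: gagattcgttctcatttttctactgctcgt
SNHG8: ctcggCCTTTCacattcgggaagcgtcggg
SNHG12: gcttcagcgCCCTTTCTCCCCgccgcattc
SNHG17: gtgtggcctcagtCCTTCgccgtccctcgc
SNHG11: gctctaggctgcagccgcgCCCCCagccgt
SNHG5: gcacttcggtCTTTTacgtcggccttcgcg
ZFAS1: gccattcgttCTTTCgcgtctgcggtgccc
The windows lie at chr11:62855866-62855895 (-) for SNHG1, chr4:118278752-118278781 (+) for SNHG8, chr1:28581854-28581883 (-) for SNHG12, chr20:38435309-38435338 (-) for SNHG17, chr20:38446644-38446673 (+) for SNHG11, chr6:85678714-85678743 (-) for SNHG5 and chr20:49278632-49278661 (+) for ZFAS1.

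Among small guide RNAs the transcripts that passed were all lower. Of 22 snoRNA and scaRNA transcripts tested, a group chosen after its values were seen, 6 fell with the mimic in cells with AGO2 and 0 rose. Over all transcripts 8.11% fell and 8.40% rose. Of the 22 estimates 20 were below 0, with a median of -0.25 against 0.01 over all transcripts. The 6 that fell were SCARNA16 (-1.37 ± 0.27), SCARNA9 (-1.07 ± 0.12), SCARNA13 (-1.05 ± 0.15), SNORA11D (-0.85 ± 0.13), SCARNA17 (-0.80 ± 0.21) and SCARNA27 (-0.78 ± 0.20), each with 1 probe. SCARNA9 had log2 levels of 11.14, 11.21 and 11.83 in cntrl, 10.26, 10.30 and 10.41 in mimic145, 11.11, 10.94 and 11.27 in sirnaAGO2, and 11.03, 10.76 and 11.16 in sirnaAGO2+mimic145 cells. The 3 mimic145 arrays were the lowest of the 12. SCARNA13 was the only member that fell with the mimic in silenced cells too (-0.78 ± 0.15, adjusted p = 0.0351). Without replicate 1 the count of 6 was 1, and it was 3 without replicate 3, without mimic145 replicate 1 or by the authors' table.

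For 4 of the 6 that fell, a coding gene that contains them was measured. Only coding genes were searched, so that noncoding hosts were not examined, for SCARNA13 and SCARNA17 or for the others. SEC14L1, around SCARNA16, differed by -0.09 (adjusted p = 0.376), CEP295, around SCARNA9, by -0.13 (0.357), MAGED4, around SNORA11D, by 0.06 (0.756), and EEF1E1, around SCARNA27, rose by 0.44 (0.0027). None of the 4 fell with its small RNA. A list of machinery RNAs held those of RNase P, RNase MRP, telomerase and the spliceosome, and a scaRNA. Of this list 6 were measured (RMRP, RPPH1, TERC, RNU2-1, RNU12 and SCARNA2), and 0 passed in any comparison. SCARNA2 is the scaRNA and is also 1 of the 22 small guide RNAs above. RMRP, the RNA of RNase MRP, differed by -0.11 ± 0.14 with the mimic. The 5.8S ribosomal RNA (RNA5-8SN5), outside that list and chosen after its values were seen, fell by 0.37 (adjusted p = 0.0361).

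MIR22HG, the host of miR-22, had 3 measured transcripts. NR_028504, with 2 probes, had log2 levels of 8.52, 8.43 and 8.33 in cntrl, 9.34, 9.08 and 9.21 in mimic145, 8.29, 8.11 and 8.17 in sirnaAGO2, and 8.46, 8.25 and 8.28 in sirnaAGO2+mimic145 cells. It rose with the mimic by 0.79 ± 0.07 (adjusted p = 0.0005) and differed by 0.14 ± 0.07 in silenced cells (adjusted p = 0.246). The difference of these responses, -0.65 ± 0.10, had the smallest adjusted p of all noncoding transcripts, 0.112, and did not pass. NR_028505, with 1 probe, rose in both backgrounds, by 0.49 ± 0.12 and by 0.60 ± 0.12 (adjusted p = 0.0391). The transcripts of this gene thus gave unlike values in silenced cells. Of the 10 transcripts of listed microRNA hosts, these were the 2 that rose with the mimic in cells with AGO2, and 0 fell. Over all transcripts 8.40% rose and 8.11% fell there.

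**Figure D4:**
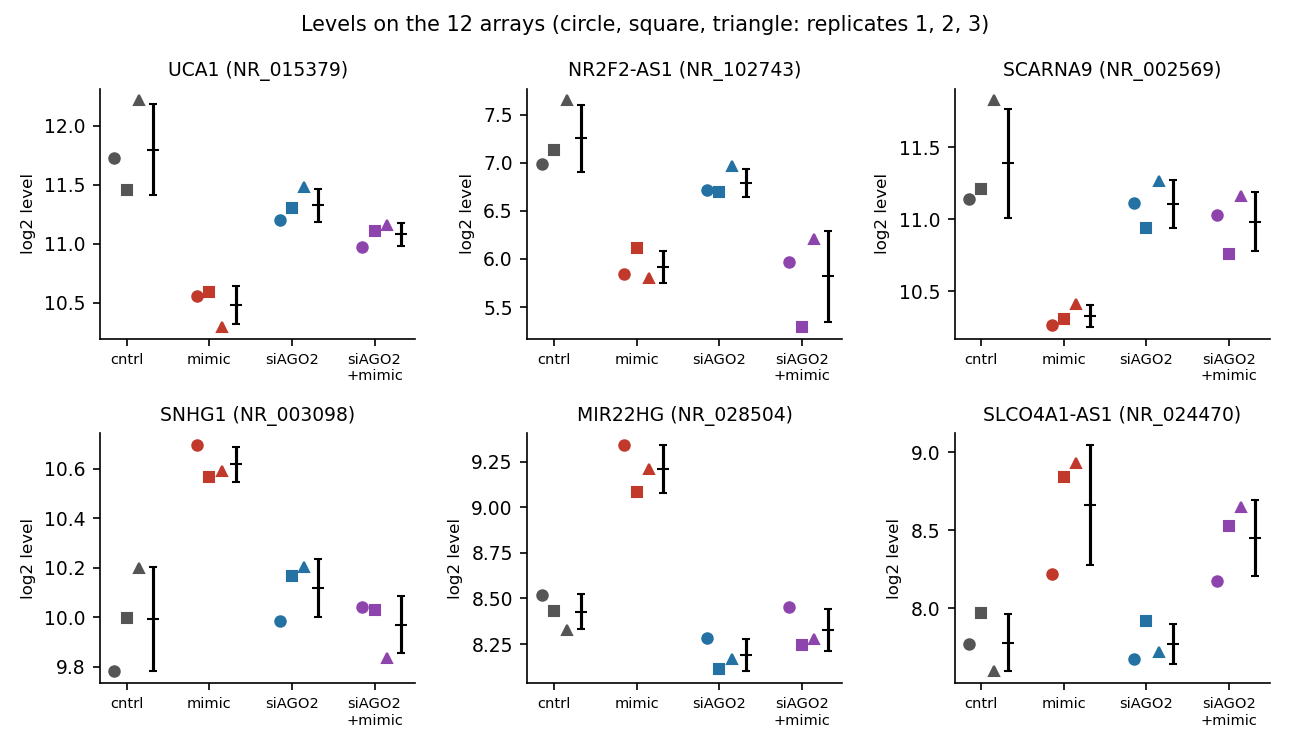
Log2 level on each of the 12 arrays (y axis, each panel with its own range) in the 4 groups (x axis, with mimic for mimic145 and siAGO2 for sirnaAGO2), with the mean and SD of 3 arrays as bars, for UCA1, NR2F2-AS1, SCARNA9, SNHG1, MIR22HG and SLCO4A1-AS1. For UCA1, SCARNA9, SNHG1 and MIR22HG the mimic145 arrays lie apart from all others, and for NR2F2-AS1 and SLCO4A1-AS1 both mimic groups lie apart from both groups without it.

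Among 34 transcripts of 21 well-studied long noncoding RNAs, 3 fell and 2 rose with the mimic, a share near the 16.5% of all transcripts that changed. UCA1, an RNA first described in bladder cancer, was the one of these with the largest change. Over 9 probes it had log2 levels of 11.72, 11.46 and 12.22 in cntrl, 10.56, 10.59 and 10.29 in mimic145, 11.20, 11.30 and 11.48 in sirnaAGO2, and 10.97, 11.11 and 11.16 in sirnaAGO2+mimic145 cells. It fell by 1.32 ± 0.17 with the mimic (adjusted p = 0.0017), all 9 probes were lower on average, and in silenced cells it differed by -0.25 ± 0.17 (adjusted p = 0.381). The test of the difference, 1.07 ± 0.24, gave an adjusted p of 0.150. HCP5, a transcript of the MHC region, fell by 0.56 ± 0.07, from 9.71, 9.84 and 9.87 to 9.11, 9.23 and 9.40, and differed by -0.01 ± 0.07 in silenced cells. Of the transcripts of CYTOR, NR_024204 fell by 0.37 ± 0.09. LINC-PINT, a p53-induced RNA, rose by 0.52 ± 0.07 in 1 of its 6 transcripts (NR_110473), and FENDRR by 0.51 ± 0.12 from 1 kept probe, though over all its probes FENDRR differed by -0.016. FENDRR rose in silenced cells too (0.84 ± 0.12), as did a transcript of CDKN2B-AS1 (NR_047539, 0.40 ± 0.09). MALAT1, the abundant nuclear RNA, differed by -0.01 and MEG3 (NR_002766) by -0.04 with the mimic. HOTAIR, which scaffolds chromatin modifiers, differed by -0.94 (adjusted p = 0.087) in 1 transcript and by 0.12 in the other.

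By size of change among transcripts with 2 or more kept probes, the largest falls with the mimic were those of PAXIP1-AS2, NR2F2-AS1, UCA1, the noncoding transcript of LGALS3 and ATE1OSP, and the largest rises those of SLCO4A1-AS1, DPY19L3-DT, HCG18, LINC00324 and MIR22HG. PAXIP1-AS2 (NR_024476) fell by 2.37 ± 0.50 with the widest spread of these, from 7.09, 6.97 and 7.62 in cntrl to 3.69, 4.83 and 6.05 in mimic145 cells. The value of 3.69 lay under 3.80, the mean in mimic145 cells of LINC00515 (below), which was not detected on any array there. The size of the fall of PAXIP1-AS2 is therefore uncertain, and a kept probe needed to be bright in 1 group only. NR2F2-AS1 (NR_102743) had 6.99, 7.13 and 7.65 in cntrl, 5.84, 6.11 and 5.81 in mimic145, 6.71, 6.70 and 6.96 in sirnaAGO2, and 5.97, 5.29 and 6.20 in sirnaAGO2+mimic145 cells. It fell by 1.34 ± 0.21 with AGO2 and by 0.97 ± 0.21 in silenced cells (adjusted p = 0.0428), and both mimic groups were below both others. LGALS3 (NR_003225) fell by 1.27 ± 0.20, and ATE1OSP fell by 1.25 ± 0.21. Sizes of these dim transcripts depended on the background correction, and with normexp the estimates were -1.03 for PAXIP1-AS2, -0.62 for NR2F2-AS1, -0.53 for LGALS3 and -0.36 for ATE1OSP. The last no longer passed there (adjusted p = 0.0818), nor with only its probes detected on each of the 12 arrays (-0.11, adjusted p = 0.766). SLCO4A1-AS1 rose by 0.88 ± 0.15 and by 0.68 ± 0.15 (adjusted p = 0.0459). LINC00324 rose in both backgrounds, by 0.81 ± 0.07 and 0.41 ± 0.07, while DPY19L3-DT rose by 0.85 ± 0.15 with AGO2 and differed by -0.18 in silenced cells. HCG18 (NR_102327) rose by 0.83 ± 0.08 with AGO2 and differed by 0.26 ± 0.08 in silenced cells (adjusted p = 0.0892). LINC00515, with 1 probe and chosen after its values were seen, was not well above background on any mimic145 array. Counted from the lowest signal of any detected probe, it was 2.77-fold lower there than in cntrl cells (mean log2 level 5.98). This is not a lower bound, as LINC00993, also not detected on any mimic145 array, had a mean log2 level of 5.56 there. The LINC00515 value is a description, as its probe was kept through the groups in which it was bright. LINC00515 was 1 of 7 noncoding transcripts, of the 246 that passed, that were not well above background in 1 group, in each case mimic145. Each was kept through a group in which it was bright. Such transcripts were not counted over all or over coding transcripts, so that the 7 do not set noncoding transcripts apart.

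Antisense RNAs moved with the genes they are named after in some pairs and against them in others. Of 306 antisense transcripts whose sense gene was measured, 42 passed with the mimic, where 16.5% of all and 13.2% of noncoding transcripts passed. For 22 of the 42 the sense gene's estimate had the same sign. Both passed for 12 pairs, 8 in the same and 4 in opposite directions, where 23.1% of all coding genes passed. Across these pairs the changes had a Pearson r of 0.09, in which the pairs share arrays and some share a sense gene. NR2F2, a nuclear receptor, differed by 0.11 (adjusted p = 0.365) beside the fall of NR2F2-AS1, whereas NR2F1 rose by 0.76 beside the rise of NR2F1-AS1 (NR_109820, 0.79 ± 0.08). PAXIP1 fell by 0.33 (adjusted p = 0.0144) beside PAXIP1-AS2. In silenced cells 12 of the 306 antisense transcripts passed, where 4.26% of all transcripts did. In the 2 pairs in which both passed the directions were opposite, where 8.24% of all coding genes passed.

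Most pseudogenes that changed had the sign of their parents. Of 259 pseudogene transcripts with a measured parent, 42 passed with the mimic, a share near the 16.5% of all transcripts, and 35 of these had the sign of the parent. In 18 pairs both passed, all 18 in the same direction, where 23.1% of all coding genes passed, and the changes had a Pearson r of 0.51 across pairs that share arrays and, in part, a parent. In silenced cells 7 passed, where 4.26% of all transcripts did, and 3 of the 7 passed with their parents and in the same direction. There 8.24% of all coding genes passed, and r was 0.30. The probe sequences were not at hand, so that binding of the parent's RNA by a probe of its copy was not tested. CIDECP1 rose by 1.20 ± 0.31 and its parent CIDEC, a protein of lipid droplets, by 1.10. PAFAH1B2P2 fell by 1.42 ± 0.25 in NR_077241 and differed by -0.13 in NR_077240, and PAFAH1B2 fell by 0.98. For others the parent did not pass. SBDSP1 (NR_001588) rose by 1.18 ± 0.20, from 7.52, 7.74 and 6.76 to 8.69, 8.79 and 8.06, while SBDS, a ribosome assembly factor, differed by 0.13. ANAPC1P2 rose by 0.94 ± 0.14 and ANAPC1 differed by 0.11. Transcripts of RABGEF1P1 went both ways, as NR_111976 fell by 1.47 ± 0.26, NR_111973 rose by 0.35 ± 0.09 and NR_111977 differed by 0.07, while RABGEF1 differed by -0.17. TYRO3P was not well above background on any mimic145 array. Counted in the same way as LINC00515, it was 1.89-fold lower than in cntrl cells, again a description and not a lower bound, and TYRO3 differed by -0.16. These pseudogenes had 1 kept probe on each transcript named.

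**Figure D5:**
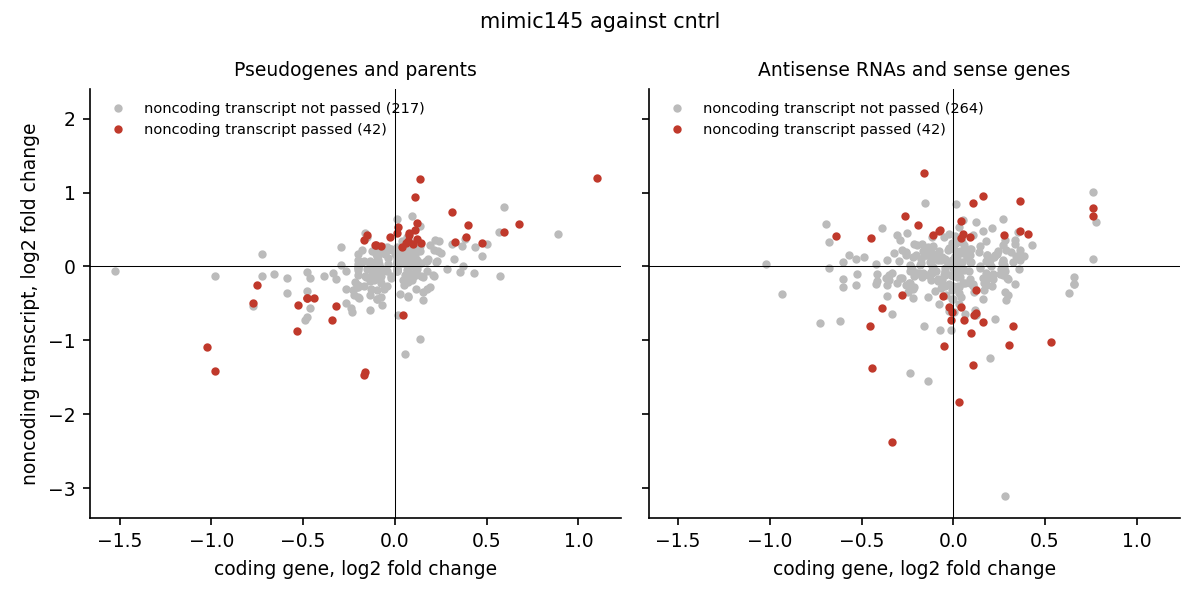
Log2 fold change with the mimic in cells with AGO2 of noncoding transcripts (y axis) against that of the coding gene (x axis), for 259 pseudogenes and their parents (left) and 306 antisense RNAs and their sense genes (right), in red where the noncoding transcript passed (42 in each panel). Red points on the left lie mostly where both changes have the same sign, and on the right they lie in all 4 quadrants.

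For 98 genes both noncoding and coding transcripts were measured, and their ratio was tested within each gene. Probe sequences were not at hand, so that binding of a gene's coding transcripts by its noncoding probes was not tested. The ratio is therefore one of probe signals and not of amounts of the 2 kinds of transcript. With the mimic the ratio changed for 11 genes (11.2%, limma over the 98), 2 lower and 9 higher. In 6 of these the noncoding transcripts had the larger estimate, and in 5 the coding ones. For FXYD5, which makes a subunit that modulates the sodium pump, the noncoding probe was higher by 1.09 and the 8 coding probes lower by 0.22. The ratio rose by 1.31 ± 0.18 (limma adjusted p = 0.00104). This noncoding probe was dim, at a mean log2 level of 5.17 in cntrl cells, beside 12.25 for the coding probes. For LGALS3, which makes galectin-3, the 2 noncoding probes were lower by 1.27 and the coding ones by 0.17 (ratio -1.10 ± 0.22). NR_003225 of LGALS3 had log2 levels of 7.68, 6.29 and 6.42 in cntrl and 6.48, 5.36 and 4.74 in mimic145 cells, lower in each of 3 pairs though the groups overlapped. C1QTNF9B, with 1 probe of each kind, had a ratio of -1.28 ± 0.22, from -0.75 on the noncoding and 0.52 on the coding side. Its noncoding probe was dim too, at 6.05 in cntrl and 5.30 in mimic145 cells. The noncoding probes of XAGE1A, KLHL7 and COPB2 differed by 0.80, 0.91 and 0.47, and the coding probes by -0.04, 0.35 and -0.05. With only probes detected on each of the 12 arrays, the ratio changed with the mimic for 6 genes.

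The coding estimate was the larger for PTPRR, IL15, NEURL3, DMKN and EXOSC7. For PTPRR, a tyrosine phosphatase, the coding probes were lower by 0.83 with the mimic and the noncoding probe differed by 0.18, so that the ratio rose by 1.01 ± 0.14. The estimates were -0.83 (coding) and 0.09 (noncoding) for IL15, -0.90 and 0.27 for NEURL3, -0.87 and 0.03 for DMKN, and -0.39 and 0.15 for EXOSC7. In silenced cells the ratio rose for 6 genes (6.12%) and fell for 0. DMKN (0.89 ± 0.19), ZNF30 (0.79 ± 0.16), AVPR2 (0.69 ± 0.17) and PTPRR (0.61 ± 0.14) were the largest. Silencing alone changed the ratio of 0 genes (limma, 12 at an unadjusted p under 0.05), and 1 gene with the median over probes or without replicate 1. The count in silenced cells was 0 when a probe had to be detected on each of the 12 arrays, when the replicate block was left out and when replicate 3 was.

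In cells with AGO2 silenced, 71 noncoding transcripts changed with the mimic, 22 lower and 49 higher. This was 3.82% of those tested, beside 4.26% of all transcripts (1.70% lower and 2.56% higher) and 4.28% of coding ones. Of the 71, 36 had also changed with the mimic in cells with AGO2, all 36 in the same direction, which is 50.7% of the 71 and 14.6% of the 246. This overlap was not counted over all or over coding transcripts, so that it does not set noncoding transcripts apart. The count and the share of rises depended on scaling. By the 75th percentile, which moved the median of all transcripts to 0.12, 28 were lower and 214 higher. Without the replicate block 3 transcripts changed, and without any 1 replicate number 0. Leaving out sirnaAGO2+mimic145 replicate 1 gave 184, and leaving out sirnaAGO2 replicate 3 gave 1.

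The largest falls in silenced cells were those of LITATS1, ENTPD3-AS1, NR2F2-AS1, ANKRD30BP2 and TRAM2-AS1. LITATS1 had log2 levels of 6.96, 7.16 and 7.04 in cntrl, 6.0, 5.83 and 5.63 in mimic145, 6.57, 6.92 and 6.73 in sirnaAGO2, and 5.69, 4.88 and 5.67 in sirnaAGO2+mimic145 cells. It fell by 1.33 ± 0.21 in silenced cells and by 1.24 ± 0.21 in cells with AGO2. ENTPD3-AS1 fell by 1.09 ± 0.13 in silenced cells, from 6.30, 6.07 and 6.58 to 5.13, 4.80 and 5.74, and differed by -0.16 ± 0.13 in cells with AGO2 (adjusted p of the difference 0.130). Its sense gene ENTPD3, an ectonucleotidase, rose by 0.50 there (adjusted p = 0.0184). ANKRD30BP2 fell by 0.90 ± 0.17 and TRAM2-AS1 by 0.75 ± 0.16, and both had fallen in cells with AGO2 as well. With normexp the estimates in silenced cells were -0.62 for LITATS1, -0.43 for ENTPD3-AS1 and -0.34 for NR2F2-AS1, the last past the threshold no more. With probes detected on each of the 12 arrays ANKRD30BP2 differed by -0.48 and no longer passed. The largest rises were those of SLCO4A1-AS1 (0.68), LINC00301 (0.60 ± 0.11), NR2F1-AS1 (0.58 ± 0.08), LINC00173 (0.54 ± 0.12) and FAM181A-AS1 (0.51 ± 0.12). LINC00301, NR2F1-AS1 and SLCO4A1-AS1 had risen in cells with AGO2, and LINC00173 and FAM181A-AS1 differed there by 0.03 and 0.15.

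Silencing of AGO2 alone changed 14 noncoding transcripts, 7 lower and 7 higher, or 0.752% of those tested, beside 0.839% of all transcripts (0.616% lower and 0.223% higher) and 0.927% of coding ones. WFDC21P, a pseudogene transcript known from dendritic cells, had log2 levels of 8.71, 8.40 and 9.48 in cntrl and 7.08, 7.50 and 8.13 in sirnaAGO2 cells, and fell by 1.30 ± 0.20. It also fell with the mimic, by 1.09 ± 0.20, to 7.66, 7.42 and 8.25. ZNF204P fell by 0.78 ± 0.14 and LINC00261 by 0.47 ± 0.08, as did NR_024412, which was not matched to a gene (-0.80 ± 0.13). ZNF674-AS1 rose by 0.47 ± 0.07, from 7.78, 7.97 and 7.99 to 8.30, 8.38 and 8.47. Leaving out cntrl replicate 1, sirnaAGO2 replicate 1, 2 or 3, or any replicate number left 0 of these calls, and 1 was left without the replicate block.

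The direct test of whether the response to the mimic differed between the backgrounds passed for 0 of the 1861 noncoding transcripts (limma, 235 at an unadjusted p under 0.05, and 143 by the methods' paired test before adjustment) and for 3 of all transcripts (0.00915%).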

How the data were processed

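The authors labelled total RNA with the Low Input Quick Amp WT kit in 1 color, and read the arrays with Agilent Feature Extraction 10.7.3.1. They deposited for each array the processed signal, a background-corrected intensity, and a table of quantile normalized log2 values, which served as an alternative. Here the deposited intensity was raised to 1 where it was smaller, and the 12 arrays were then brought to 1 distribution by quantile normalization and put on the log2 scale, in the order of the study's methods. Outlier spots were left out. Probes were grouped by accession without its version and averaged over the kept probes of a transcript (3590 noncoding probes). Precision is limited by the number of arrays, 3 in each group, and not by a read depth.

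A linear model with the 4 groups and with a block for the replicate number was run over 32779 transcripts and 12 arrays with limma 3.58.1 in R 4.3.3, with two-sided tests and Benjamini-Hochberg adjustment over all transcripts. The study's methods name a paired test. Deviations of arrays with the same replicate number correlated by 0.14 to 0.52 (18 pairs), and those of arrays with different numbers by -0.45 to 0.17. Where 200 noncoding transcripts were changed by 1 in simulated arrays, 58.5% were found with the mimic and 34.5% by the test of the difference. In these runs 8 and 4 other transcripts were called, and 0 were called when none was changed. In the data 5409 of all transcripts passed with the mimic, so that the adjustment differs and these shares are not those of the real comparisons.

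Genes and classes were named through the RefSeq table of GRCh38.p14, while the scanner files name hg19, so that no coordinates of probes are given. Sense genes and parents were found by symbol, and their values are means over the coding probes of a gene, fitted over 17159 genes. Named transcripts were members of 4 lists with a noncoding probe, up to 5 rises and 5 falls in each comparison among those that passed with at least 2 kept probes and 3 replicate pairs in 1 direction, up to 4 in each direction of the ratio, the 6 highest signals, and up to 3 pseudogenes in each direction. Not every transcript that meets this is named. The members and lists were chosen with earlier results of these data known.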

Additional observations from a re-analysis of the deposited data

How the results depend on the processing

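The counts of changed transcripts depended on the settings, and the cause was not tested. With the mimic in cells with AGO2, 246 noncoding transcripts changed. The count was 150 with only transcripts of at least 2 kept probes, 102 with no replicate block, 81 when the 6 other arrays were left out of the fit, 155 where a change over 0.5 was also required, 94 at an adjusted p under 0.01 and 0 by the methods' paired test after adjustment, and leaving out a replicate or an array gave 34 to 266. The counts that differed by over 1.5 times came without replicate 1 (34), replicate 2 (121), replicate 3 (68), cntrl replicate 1 (144), cntrl replicate 2 (143), cntrl replicate 3 (156) and mimic145 replicate 1 (135).

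With the mimic in silenced cells, 71 changed. The count was 242 with the 75th percentile, 196 with normexp, 140 with the authors' table, 27 with no filter, 3 with no replicate block, 26 with the slide as a random block, 0 when the other arrays were left out, 0 at an adjusted p under 0.01, and 0 and 218 by the methods' paired test after and before adjustment, and leaving out a replicate or an array gave 0 to 184. With AGO2 silencing, 14 changed. The count was 25 with normexp, 9 with the authors' table, 4 with no filter, 27 with only probes detected on all 12 arrays, 6 with the median over probes, 1 with no replicate block, 0 when the other arrays were left out, 22 with an intensity trend, 0 at an adjusted p under 0.01, and 0 and 231 by the methods' paired test, and leaving out gave 0 to 13. The test of the difference gave 143 by the methods' paired test before adjustment, 0 under the other settings and 0 to 0 on leaving out.

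The 11 ratios that changed with the mimic were 20 with normexp, 6 with probes detected on all 12 arrays and 7 with no replicate block, and 6 to 9 without a replicate. The 6 in silenced cells were 22 with the 75th percentile, 16 with normexp, 16 with the authors' table, 0 with probes detected on all 12 arrays, 2 with the median over probes and 0 with no replicate block, and 0 to 4 without a replicate. The 0 with silencing alone became 1 with the median over probes, and 0 to 1 without a replicate. The median detection of 45.5% was 75.4% by the weaker call of a positive and significant signal and 63.8% when transcripts with a detected probe in cntrl were counted, and 44.4% to 46.6% without an array. The level difference of -1.50 was -1.56 with the 75th percentile, -0.82 with normexp, -1.73 with the authors' table and -0.67 with the filter, and -1.56 to -1.47 without an array.

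Scaling also moved the balance of directions. By the 75th percentile silencing lowered 12 and raised 7 noncoding transcripts. In the authors' values 3 were lower and 6 higher, and after quantile normalization 7 and 7. Of 43 named changes, 1 turned its direction, FENDRR with the mimic (-0.0159 with no filter, NR_036444), and 26 lost the call with no replicate block, 30 when the other arrays were left out of the fit, 27 at an adjusted p under 0.01 and all 43 by the methods' paired test after adjustment. Of 645 values without a replicate or an array, 294 lost the call and 0 turned. The replicate number was a block in the setting reported.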
